A study of Mus musculus with 10 samples.

Results

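The chemokine system of the mouse liver is described here through 57 protein-coding genes, out of 55385 gene IDs measured in whole liver. They were found by symbol, as every protein-coding gene whose name marks it as a CC, CXC, CX3C or XC chemokine, as a receptor of those families, or as Ccrl2. The set holds 37 chemokines (23 CC, 12 CXC, 1 CX3C and 1 XC) and 20 receptors (12 CC with Ccrl2, 6 CXC, 1 CX3C and 1 XC). The symbol pattern also matched 3 genes that the annotation does not list as protein-coding, Cxcl11 (a polymorphic pseudogene in this annotation), Ccl19-ps1 and Ccl19-ps3, and these are not members.

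Total RNA was taken from frozen, homogenised liver and sequenced on a BGISeq-500 instrument in 10 libraries. In 5 of them the genotype is given as control, and in the other 5 as knockout of Alk1, the gene now called Acvrl1, under the group name Alk1-HEC-KO. The letters HEC are not spelled out, and the labels give no age, sex, strain, allele, Cre driver or treatment for either group. Separate animals are not named either, so p-values below measure only the spread among libraries, which may be technical.

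Libraries held 20.91 to 21.56 M (mega) estimated counts, and the hepatocyte marker Alb averaged 36000 and 36400 TPM in the control and the other group. TPM scales the reads of a gene by its length and brings every library to the same sum, so it is used below for levels and for comparing genes. Acvrl1 itself averaged 0.669 ± 0.331 TPM in controls and 1.36 ± 0.331 TPM in the Alk1-HEC-KO group (SD, n = 5 each), against the direction of the label, with all labelled knockout libraries above all controls in TPM but not in counts. The group is therefore called labelled knockout, since each direction given here depends on that label. Saa1, an acute phase protein, was above 1000 TPM in control 4 and in labelled knockouts 4 and 5, and Fos, an immediate early gene, was above 20 TPM in controls 1 and 2. The numbers in the names of the deposited files fall into 3 runs, whose meaning the labels do not give. The first held controls 1 and 2 with labelled knockout 1, the second controls 3, 4 and 5 with labelled knockout 3, and the third labelled knockouts 2, 4 and 5 with no control.

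Chemokines are small secreted proteins that draw leukocytes along a gradient, and their families are named after the spacing of the first cysteines. Their receptors are seven-helix membrane proteins that signal through inhibitory G proteins, and many receptors bind several chemokines. In the liver, hepatocytes, sinusoidal endothelium, stellate cells and Kupffer cells make chemokines, and most of the receptors are carried by leukocytes. In RNA from whole tissue, fewer cells of a type and less RNA per cell cannot be told apart.

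Of the 57 genes, 49 had at least 1 rounded count over all libraries, 30 of the 37 chemokines and 19 of the 20 receptors. A stricter requirement of 10 counts over all libraries left 37 genes, 24 chemokines and 13 receptors, and 25 genes had a count in every library. Single libraries detected between 32 and 41 of them, 35.8 ± 3.42 in controls and 37.2 ± 2.49 in labelled knockouts (SD, n = 5 each). The 8 genes at 0 counts were Ccl1, Ccl20, Ccl26, Ccl27b, Cxcl3, Cxcl15, Cxcl17 and the receptor Ccr8. A total of 0 over 212.0 M counts allows up to 3 counts, or 0.0141 CPM (counts scaled to a common library total), for counting error only. Another 12 genes had 1 to 9 counts in all, the chemokines Ccl7, Ccl8, Ccl11, Ccl12, Ccl17 and Cxcl5 and the receptors Ccr1l1, Ccr3, Ccr4, Ccr6, Ccr10 and Cxcr1. No difference between the groups was detectable for them at this depth.

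Many of the genes lie on a few chromosomes of the mouse genome. Chromosome 11 holds 12 of the chemokines, among them Ccl2, Ccl3, Ccl4, Ccl5, Ccl6 and Ccl9, and chromosome 5 holds 10, among them Cxcl1, Cxcl2, Cxcl9, Cxcl10 and Cxcl13. Chromosome 9 holds 13 of the 20 receptors. On chromosome 4 lie 5 chemokines, Ccl19, Ccl21a, Ccl21b, Ccl27a and Ccl27b, next to near-identical copies that limit how their reads can be assigned.

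Chemokine RNA was much more abundant than receptor RNA. Summed over the chemokines, levels reached 194 ± 41.6 TPM in controls and 224 ± 32.5 TPM in labelled knockouts, and summed over the receptors 3.0 ± 0.615 and 5.03 ± 2.15 TPM (SD, n = 5 each). The 2 groups overlapped in both sums, from 149 to 262 against 196 to 276 TPM for the chemokines and from 2.51 to 4.01 against 3.47 to 8.67 TPM for the receptors. A mean of 1 TPM or more over the 10 libraries was reached by 14 genes, all chemokines, and no receptor reached that level.

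**Figure D1:**
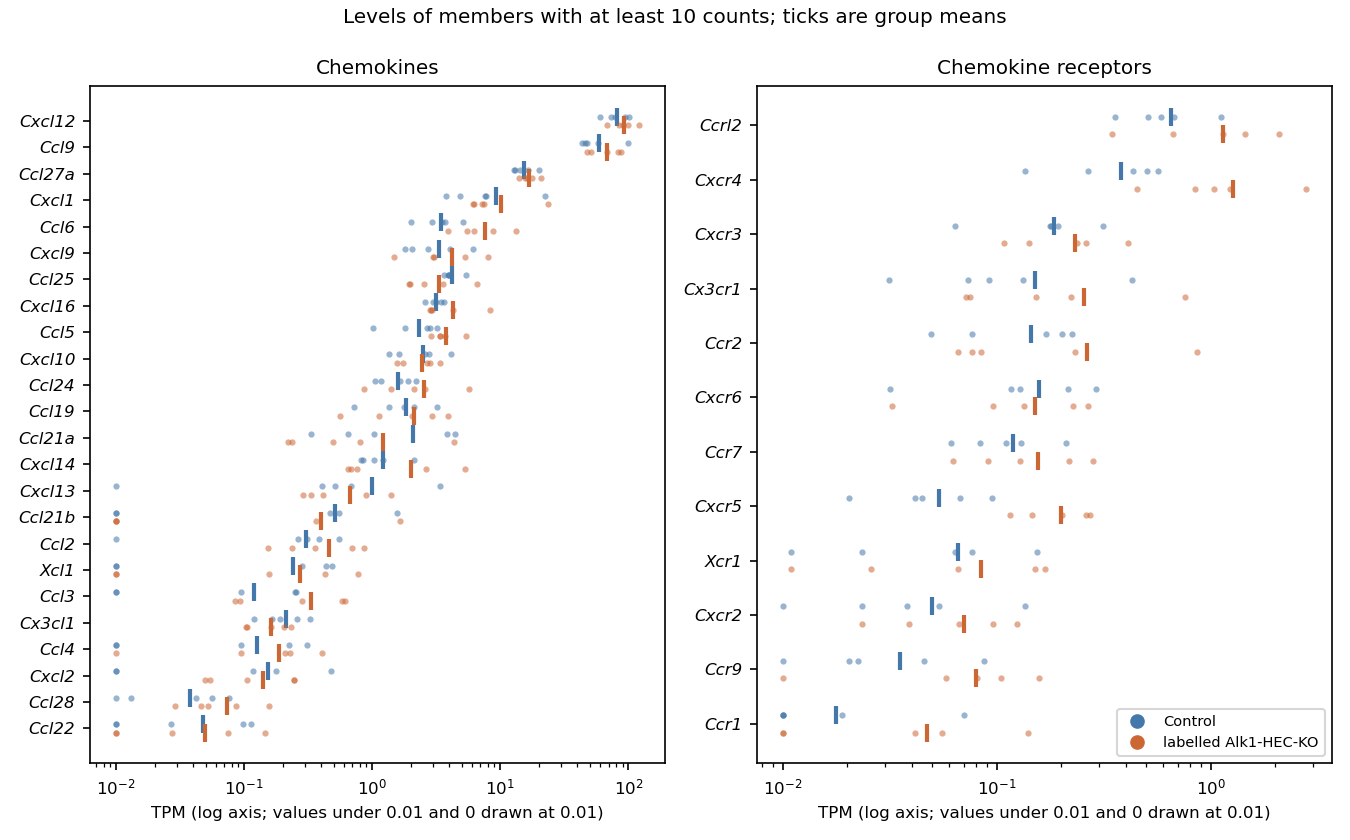
Levels in TPM on a log axis of 24 chemokines (left) and 12 receptors (right) with at least 10 counts over all libraries. Each point is a library, each tick a group mean, and values under 0.01 are drawn at 0.01; Cxcl12 and Ccl9 lie above the other chemokines, and no receptor exceeds 2.78 TPM in any library.

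A pair of chemokines made up most of this RNA. Cxcl12 and Ccl9 together held 66.4% to 80.2% of the summed chemokine TPM of a library, 72.3% ± 3.47 in controls and 71.9% ± 5.37 in labelled knockouts (SD, n = 5 each). Averaged over all libraries, Cxcl12 stood at 87.3 TPM, Ccl9 at 63.2, Ccl27a at 16.1, Cxcl1 at 9.68 and Ccl6 at 5.48 TPM. Cxcl12 lay above Ccl9 in 8 of the 10 libraries and their ranges overlapped. Ccl9 lay above Ccl27a in every library, with ranges that did not overlap, and every later neighbour in the order down to Ccl19 had overlapping ranges. The first 4 places were the same in both groups taken alone.

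Cxcl12 (ENSMUSG00000061353.11, chromosome 6, 117168535 to 117181367, plus strand, GRCm38) encodes the ligand of CXCR4, a chemokine made by stromal and endothelial cells that holds leukocytes and progenitors in place. Its level was 78.8, 101, 60.4, 94.9 and 72.9 TPM in controls 1 to 5 and 68.0, 121, 91.5, 100 and 84.7 TPM in labelled knockouts 1 to 5. The groups overlapped, with the lowest value in control 3 and the highest in labelled knockout 2. The means were 81.5 ± 16.4 and 93.1 ± 19.5 TPM (SD, n = 5 each), and the log2 fold change, labelled knockout over control, was 0.08 (standard error 0.13, edgeR, adjusted p = 0.89). This was the smallest standard error among the 20 genes tested. Without the third run of file numbers the value was -0.16.

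Ccl9 (ENSMUSG00000019122.8, chromosome 11, 83572919 to 83578636, minus strand) encodes a CC chemokine of macrophages and other myeloid cells. Its level was 47.9, 45.6, 43.3, 99.9 and 57.9 TPM in controls and 68.3, 47.9, 87.1, 83.0 and 51.5 TPM in labelled knockouts. Control 4 had the highest value of all libraries, and the groups overlapped over most of their range. The log2 fold change was 0.14 (standard error 0.23, edgeR, adjusted p = 0.89).

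Ccl27a (ENSMUSG00000073888.13, chromosome 4, 41769467 to 41774247, minus strand) encodes a chemokine best known from the skin, where it attracts T cells through CCR10. Its level was 20.1, 13.1, 12.8, 16.5 and 14.2 TPM in controls and 17.7, 16.2, 13.9, 20.9 and 15.5 TPM in labelled knockouts, with overlapping groups (log2 fold change 0.08, standard error 0.19, edgeR, adjusted p = 0.93). The gene overlaps Il11ra1 on the opposite strand, and 57.0% of the 31-base words in its transcripts also occur in other genes, so its level is uncertain. Ccr10, the receptor of its product, had 3 counts in all, all in labelled knockouts.

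Cxcl1 (ENSMUSG00000029380.11, chromosome 5, 90891241 to 90893115, plus strand) encodes a chemokine that attracts neutrophils through CXCR2. Its level was 4.83, 7.58, 7.71, 22.2 and 3.77 TPM in controls and 6.26, 7.23, 7.48, 23.7 and 6.09 TPM in labelled knockouts. The library numbered 4 stood far above the rest in both groups, and the groups overlapped. The log2 fold change was 0.15 (standard error 0.55, edgeR, adjusted p = 0.95), and it was 0.70 without control 4 and -0.47 without labelled knockout 4. Both of those libraries were among the 3 with Saa1 above 1000 TPM, but the third, labelled knockout 5, had 6.09 TPM of Cxcl1. Cxcl2, its neighbour on chromosome 5 with a similar function, had 9 counts in controls and 10 in labelled knockouts. In TPM it too was highest in control 4 (0.474), but labelled knockout 4 (0.105) lay below labelled knockouts 2 and 3 (0.246 and 0.244), and each library numbered 4 had only 2 counts.

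The promoters of these inflammatory CXC chemokines are shown because they carry the elements by which the family is known to be switched on, while their levels in these livers differed widely. Sequences are from RefSeq (GRCm38.p6), 250 bases up to the annotated start, written 5′ to 3′ on the strand of the gene. Capitals mark matches, on either strand, of the NF-kB-type element GGAATTTCC and, in Cxcl10, of the interferon-response pattern GAAANNGAA as well; these 2 matches do not overlap. The positions are chr5:90890995-90891244 (plus) for Cxcl1, chr5:90903649-90903898 (plus) for Cxcl2 and chr5:92348890-92349139 (minus) for Cxcl10.
Cxcl1: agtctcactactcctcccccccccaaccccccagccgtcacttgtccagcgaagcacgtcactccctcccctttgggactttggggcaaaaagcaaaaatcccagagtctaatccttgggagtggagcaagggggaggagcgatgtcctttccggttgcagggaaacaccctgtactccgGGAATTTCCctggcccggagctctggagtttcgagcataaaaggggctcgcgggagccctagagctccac
Cxcl2: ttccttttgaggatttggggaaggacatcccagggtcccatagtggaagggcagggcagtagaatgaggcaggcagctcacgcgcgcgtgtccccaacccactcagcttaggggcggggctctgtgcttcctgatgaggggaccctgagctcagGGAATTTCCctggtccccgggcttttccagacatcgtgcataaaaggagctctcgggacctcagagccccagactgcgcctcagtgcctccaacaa
Cxcl10: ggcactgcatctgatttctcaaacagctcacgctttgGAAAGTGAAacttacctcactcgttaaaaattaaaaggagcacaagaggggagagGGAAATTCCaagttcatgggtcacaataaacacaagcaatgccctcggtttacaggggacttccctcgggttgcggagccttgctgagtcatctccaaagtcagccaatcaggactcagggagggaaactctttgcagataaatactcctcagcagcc
The NF-kB-type element was found in 0.286% of 32851 promoters of this length and in 5 of the 43 chemokine and receptor genes with a promoter in the table, Cxcl1, Cxcl2, Cxcl3, Cxcl10 and Ccr3. Of these, Cxcl1 was among the most abundant chemokines here and Cxcl3 was at 0 counts. The interferon-response pattern was found in 7.13% of promoters and in 8 of the 43 genes, among them Cxcl9 and Cxcl10. The patterns TATAAA (12.4% of promoters, 13 of the 43 genes) and GGCGCC (9.59%, 3 of the 43) were also searched on both strands. The percentages count promoters, while the numbers out of 43 count genes with a match in any of their promoters, so they are unlike measures. A match is a description of the letters and shows no binding.

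Across the groups, none of the 20 testable genes passed the test. The count filter left 16 chemokines and 4 receptors, Cxcr4, Ccrl2 and Ccr2 among them, and 0 of these 20 had an adjusted p under 0.05, against 46 of 12872 genes over the whole table, or 0.357%. DESeq2 and limma also called 0 of them. An unadjusted p under 0.05 was reached by 2 of the 20, Ccl6 and Cxcr4, and by 8.44% of all tested genes. In log2 CPM the groups overlapped for all 20, while they did not overlap for 1.68% of all tested genes. In TPM they likewise overlapped for all 20, against 1.62% of tested genes without overlap.

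The fitted log2 fold changes leaned to the labelled knockout side, but that lean rested on a few libraries. The value was above 0 for 15 of the 20 genes, with a median of 0.15, against 50.4% of all tested genes and a median of 0.00. Without labelled knockout 4 it was above 0 for 10 of 20, with a median of -0.02. In 2 fits chosen after the data were seen, 7 of 20 lay above 0 (median -0.18) when the third run of file numbers was left out, and 6 of 20 (median -0.07) without labelled knockouts 4 and 5. Without the 3 libraries with Saa1 above 1000 TPM, 9 of the 19 genes left lay above 0 (median -0.06), and with the run of file numbers as a covariate 7 of 20 (median -0.15). Labelled knockout 4 was the highest library for 13 of the 37 genes with at least 10 counts, and the next, labelled knockout 5, for 6.

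**Figure D2:**
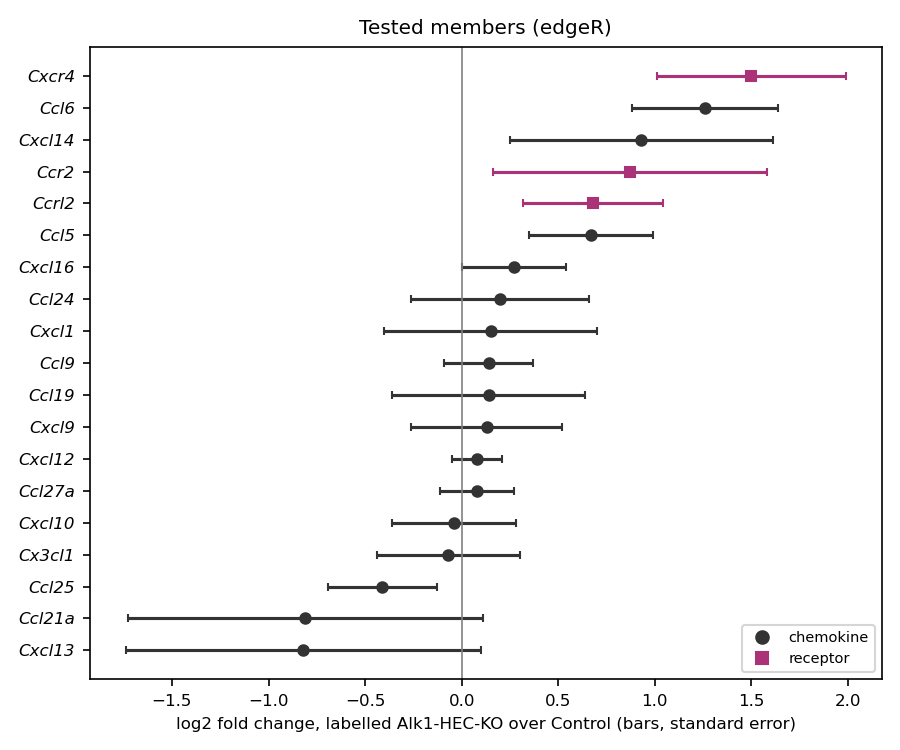
Log2 fold change of labelled knockout over control, from edgeR, of the 16 chemokines (circles) and of 3 receptors (squares), with bars of 1 standard error. Cxcr4 (1.5) and Ccl6 (1.26) lie farthest to the right, Cxcl13 and Ccl21a farthest to the left with wide bars, and none passed an adjusted p of 0.05.

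**Figure D3:**
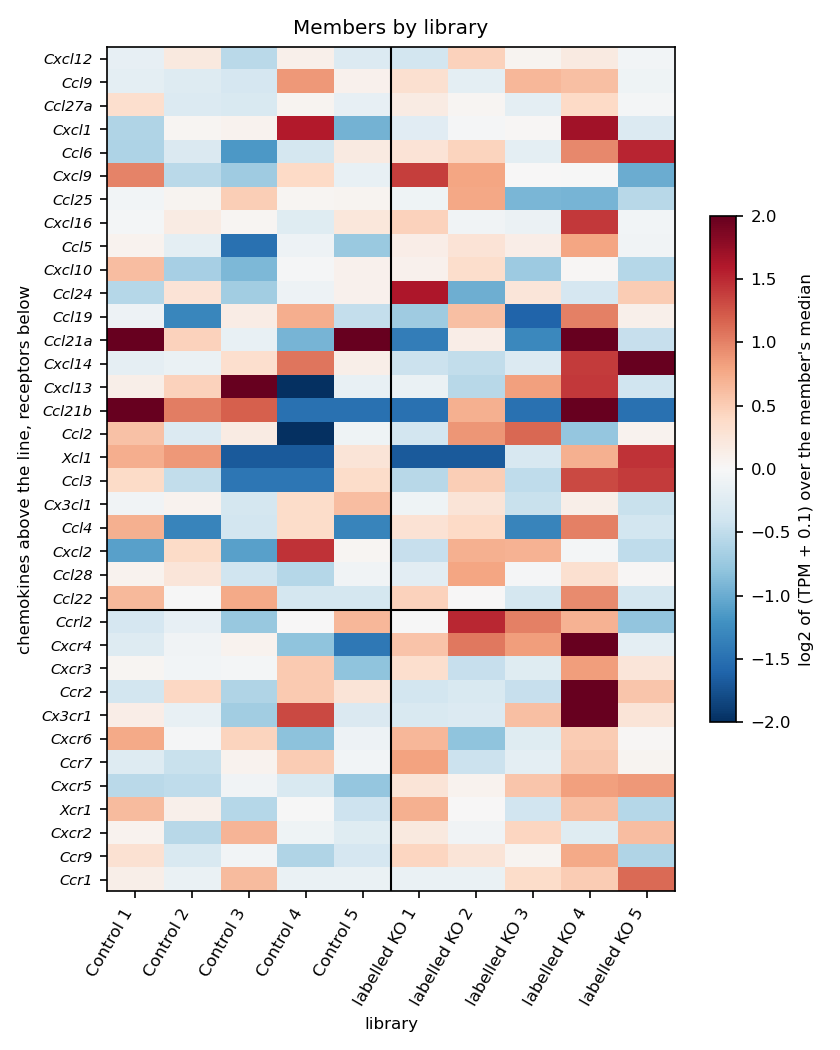
Level in every library of 36 genes with at least 10 counts over all libraries, as log2 of TPM plus 0.1 over the gene's median, with chemokines above the line and receptors below it. Labelled knockout 4 is high for many genes, 13 of which have their highest TPM there.

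Among the 16 chemokines tested, Ccl6 had the largest log2 fold change. Ccl6 (ENSMUSG00000018927.3, chromosome 11, 83587882 to 83593087, minus strand) encodes a CC chemokine of macrophages and other myeloid cells and lies next to Ccl9. Its level was 2.92, 3.69, 1.99, 3.50 and 5.11 TPM in controls and 5.45, 6.21, 3.92, 8.84 and 13.2 TPM in labelled knockouts. The groups overlapped, since labelled knockout 3 lay below control 5, and labelled knockouts 4 and 5 were the highest libraries. The means were 3.44 ± 1.14 and 7.53 ± 3.65 TPM (SD, n = 5 each), and the log2 fold change fitted to the counts was 1.26 (standard error 0.38, edgeR, adjusted p = 0.32). The value was above 0 in all 24 alternative fits and had its lowest adjusted p in DESeq2 (0.068). It was 0.75 without labelled knockout 5, 0.57 without labelled knockouts 4 and 5, 0.51 without the libraries with high Saa1, 0.40 with the run of file numbers as a covariate and 0.42 without the third run. Within the first run the labelled knockout library (5.45 TPM) lay above both controls, and within the second run it (3.92 TPM) lay below control 5.

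Ccl6 is a myeloid gene, so the levels of myeloid marker lists are given beside it. The 12 Kupffer cell markers summed to 136 to 216 TPM in controls and 216 to 422 TPM in labelled knockouts, and all were tested, with 0 called and a median log2 fold change of 0.71. All 12 lay above 0, and 9 had an unadjusted p under 0.05 in edgeR, against 50.4% and 8.44% of all tested genes. The median was 0.35 without labelled knockouts 4 and 5 and 0.27 without the libraries with high Saa1, and without labelled knockout 2 there were 2 calls. The number with an unadjusted p under 0.05 (edgeR) was 3 without the libraries with high Saa1. It was 5 without labelled knockouts 4 and 5, and also without the third run of file numbers. The largest difference was that of Marco, a macrophage scavenger receptor, with 1.32 ± 0.746 and 6.91 ± 4.19 TPM (edgeR, adjusted p = 0.097). The 10 neutrophil markers, of which 2 were tested, summed to 1.24 to 6.69 and 2.88 to 25.5 TPM, highest in labelled knockout 5, where Ccl6 was highest too. The 10 monocyte markers summed to 190 to 272 and 161 to 357 TPM, highest in labelled knockout 2. Of these, 5 were tested and 0 called, and all 5 lay above 0, with a median log2 fold change of 0.76. An unadjusted p under 0.05 (edgeR) was reached by 1 of the 5. The monocyte median was 0.11 without labelled knockouts 4 and 5 and 0.28 without the libraries with high Saa1. The Kupffer cell sum was highest in labelled knockout 4, at 422 TPM, against 296 TPM in labelled knockout 5. No defining marker of these lists was at 0 counts over all libraries, and their part in the Ccl6 values was not tested.

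The other CC chemokines tested showed smaller differences or wide errors. Ccl5, which draws T cells and monocytes, averaged 2.31 ± 0.895 and 3.74 ± 0.955 TPM (log2 fold change 0.67, standard error 0.32, edgeR, adjusted p = 0.60). Ccl25, the thymic and gut ligand of CCR9, averaged 4.17 ± 0.692 and 3.31 ± 1.92 TPM (-0.41, 0.28), and its value was below 0 in all 24 alternative fits. Ccl24, an eosinophil attractant, had 1.6 ± 0.477 and 2.53 ± 1.89 TPM (0.20, 0.46), and 5.70 TPM in labelled knockout 1 alone. Ccl19, which guides dendritic cells and T cells through CCR7, had 1.83 ± 0.930 and 2.12 ± 1.36 TPM (0.14, 0.50). In Ccl19, 58.8% of the 31-base words also occur in other genes, so its level is uncertain.

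Ccl21a and Ccl21b encode the other ligands of CCR7, and their counts cannot be kept apart from those of unnamed copies on chromosome 4. Besides Ccl21a and Ccl21b the annotation holds Gm10591, Gm13304 and Gm21541. The coding sequences of Ccl21b and these 3 genes, 402 bases each, are identical. They differ from Ccl21a at 2 positions, T84A and C194T, counted from the first base of the start codon with the base of Ccl21a first. Bases 65 to 214 of the coding sequence, from the annotated transcripts of GRCm38, show both positions in capitals.
Ccl21a: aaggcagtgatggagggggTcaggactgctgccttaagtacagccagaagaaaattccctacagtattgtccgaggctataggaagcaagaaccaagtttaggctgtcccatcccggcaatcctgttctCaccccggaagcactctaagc
Ccl21b: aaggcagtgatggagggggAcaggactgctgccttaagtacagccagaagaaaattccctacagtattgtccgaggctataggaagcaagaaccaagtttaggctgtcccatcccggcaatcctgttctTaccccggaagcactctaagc
Ccl21a lies at 42772860 to 42773993 on the minus strand and Ccl21b at 42255767 to 42256432 on the plus strand of chromosome 4.

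The deposited counts show this sharing directly. Ccl21b and Gm10591 had identical counts in every library, 21, 6, 8, 0 and 0 in controls and 0, 5, 0, 23 and 0 in labelled knockouts. Gm13304 had 10, 24, 2 and 15 counts in controls 4 and 5 and labelled knockouts 3 and 5, in all of which Ccl21b was at 0, and none in the other libraries. Which copies held counts thus differed from library to library, and the value of Ccl21b alone is uncertain. Summed over the 5 copies there were 254 counts in controls, from 14 to 108 a library, and 164 in labelled knockouts, from 3 to 112. Control 1, control 5 and labelled knockout 4 were high. The groups overlapped, but labelled knockouts 1 and 3, with 3 and 5 counts, lay below every control.

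**Figure D4:**
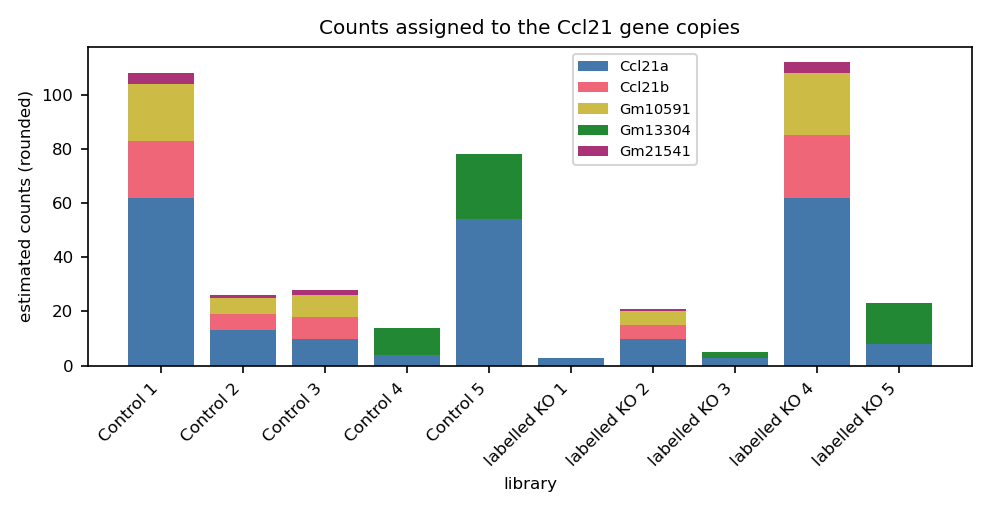
Rounded estimated counts of the 5 Ccl21 gene copies in each library, stacked. The total runs from 3 in labelled knockout 1 to 112 in labelled knockout 4, and Gm13304 has counts only where Ccl21b and Gm10591 have none.

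Ccl21a alone averaged 2.07 ± 1.93 and 1.22 ± 1.77 TPM, and the log2 fold change fitted to its counts was -0.81 (standard error 0.92, edgeR, adjusted p = 0.85). Labelled knockout 4, at 4.35 TPM, was the only labelled knockout library above 1 TPM, and without it the log2 fold change was -2.28 (edgeR, adjusted p = 0.60). It was -2.51 without labelled knockouts 4 and 5 and -3.29 without the third run of file numbers, with an adjusted p of 1.0 in both.

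The CXC chemokines fall into those induced by interferon, those known from constitutive or homeostatic expression, and the neutrophil attractants given above. Cxcl9 and Cxcl10, interferon-induced ligands of CXCR3, averaged 3.34 ± 1.77 and 4.16 ± 2.54 TPM (log2 fold change 0.13, standard error 0.39) and 2.49 ± 1.09 and 2.44 ± 0.773 TPM (-0.04, 0.32). Scaled by library totals alone, the value of Cxcl10 was 0.03. Cxcl11, which the annotation does not list as coding and which is therefore no member, had 0.310 ± 0.0555 and 0.607 ± 0.176 TPM (0.81, 0.34, edgeR, adjusted p = 0.54). Its lowest labelled knockout library, 0.380 TPM, lay just above its highest control, 0.362 TPM, but in counts that library, with 12, lay below every control (14 to 18), and the groups overlapped in log2 CPM. Cxcl16, the membrane-bound ligand of CXCR6 on sinusoidal endothelium and macrophages, averaged 3.15 ± 0.397 and 4.26 ± 2.36 TPM (0.27, 0.27). Its controls had the smallest spread among the 20 chemokine and receptor genes tested, with a coefficient of variation of 12.6%, while labelled knockout 4 stood at 8.34 TPM and the other labelled knockouts at 2.81 to 4.27 TPM.

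Cxcl13, which attracts B cells through CXCR5, averaged 0.993 ± 1.35 and 0.669 ± 0.482 TPM (-0.82, 0.92), with 3.36 TPM in control 3 and 0 in control 4. Without control 3 its log2 fold change was 0.74. Cxcl14, a chemokine of epithelia and fibroblasts, had 1.21 ± 0.524 and 2.01 ± 2.02 TPM (0.93, 0.68), and the highest library was labelled knockout 5 with 5.29 TPM. Without labelled knockouts 4 and 5 its log2 fold change was -0.89 (edgeR, adjusted p = 1.0). Cx3cl1, the membrane-bound ligand of CX3CR1, had 0.213 ± 0.0819 and 0.161 ± 0.0577 TPM (-0.07, 0.37).

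Another 8 chemokines had at least 10 counts but too few to be tested, and are given as totals over the 5 control and the 5 labelled knockout libraries. The monocyte attractant Ccl2 had 21 and 28 counts, Ccl3 7 and 20, Ccl4 6 and 9, Ccl22 10 and 10, Ccl28 11 and 25, Xcl1 8 and 10, Cxcl2 9 and 10, and Ccl21b 35 and 28. The ratio per total count, labelled knockout over control, was 2.87 for Ccl3, a chemokine of activated macrophages and T cells (95% exact interval 1.17 to 8.04), and 2.29 for Ccl28, a mucosal epithelial chemokine (1.09 to 5.15). These intervals cover counting error only, and the other 6 held 1. Labelled knockouts 4 and 5 had 7 and 8 of the 20 Ccl3 counts, and without both the ratio was 1.19, while without the third run of file numbers it was 0.717 for Ccl3 and 1.14 for Ccl28.

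The receptors stood below 1 TPM on average over the 10 libraries. Of those described here, Ccrl2 (0.892 TPM) and Cxcr4 (0.826 TPM) were close together, with overlapping ranges, and Cxcr3 followed at 0.209 TPM and Ccr2 at 0.204 TPM. The mean of Cxcr4 lay below that of Ccrl2 in controls (0.382 and 0.650 TPM) and above it in labelled knockouts (1.27 and 1.13 TPM). These orders compare overlapping ranges and carry no test.

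Cxcr4 (ENSMUSG00000045382.6, chromosome 1, 128588199 to 128592293, minus strand) encodes the receptor of CXCL12 on leukocytes and on sprouting endothelium. Its level was 0.431, 0.505, 0.569, 0.266 and 0.136 TPM in controls and 0.842, 1.23, 1.04, 2.78 and 0.454 TPM in labelled knockouts. Labelled knockouts 1 to 4 lay above every control, and labelled knockout 5 lay within the control range. The group totals were 61 and 186 counts and the means 0.382 ± 0.178 and 1.27 ± 0.894 TPM (SD, n = 5 each). The log2 fold change was 1.5 (standard error 0.49, edgeR, adjusted p = 0.36).

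Cxcr4 kept a value above 0 in all 23 alternative fits that tested it, with a lowest adjusted p of 0.14 when no count filter was used. Leaving out single libraries gave 0.95 to 1.81, the lowest without labelled knockout 4, its highest library. It was 1.08 without labelled knockouts 4 and 5, 0.95 without the libraries with high Saa1, and 1.13 with the run of file numbers as a covariate and also without the third of these runs. Within the first run and within the second, the labelled knockout library lay above every control of the run. Neither Cxcr4 nor its ligand Cxcl12, which differed by 0.08 in the same fit, passed the adjusted threshold.

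Cxcr4 is carried by several cell types, and marker lists of 2 of them are given beside it. The 10 endothelial markers were listed for continuous endothelium, which is found in capillaries outside the sinusoids. They also hold general endothelial genes, such as Pecam1, Cdh5 and Kdr, so their sum is no measure of that type alone. It was 26.9 to 45.8 TPM in controls and 56.3 to 108 TPM in labelled knockouts, without overlap. Of the 10 tested, 5 rose (edgeR), against 0.186% of all tested genes called higher. The list was chosen with earlier results of these data known, so this comparison is no test. Leaving out single libraries gave 3 to 5 calls, the fewest without control 5. There were 2 without the libraries with high Saa1, 2 without those with Fos above 20 TPM and 3 without the third run of file numbers. The largest rise in this list was that of Ly6c1, 0.598 ± 0.267 and 15.3 ± 5.51 TPM (edgeR, adjusted p = 0.000027). The sum over the list was highest in labelled knockout 4, as Cxcr4 was. The sums of the Kupffer cell, T cell, B cell, dendritic cell, sinusoidal endothelial, stellate cell and bile duct lists were highest there too. The 7 B cell markers summed to 9.95 to 29.8 and 28.6 to 48.9 TPM, and 1 of 6 tested rose, the immunoglobulin gene Igkc (log2 fold change 1.39, edgeR, adjusted p = 0.013). No gene of this list was called without control 1, without the libraries with high Saa1, or without those with Fos above 20 TPM. The same held when labelled knockouts 4 and 5, or all of the third run, were left out. With all libraries 4 of the 6 had an unadjusted p under 0.05 (edgeR), against 8.44% of all tested genes. This number was 3 without the libraries with high Fos and 1 without those with high Saa1. It was 2 without labelled knockouts 4 and 5, and also when the third run was left out. No marker of either list was at 0 counts, and their part in the Cxcr4 values was not tested.

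Among the receptors too low to test, Cxcr5 was the one whose groups did not overlap in TPM. Cxcr5 (ENSMUSG00000047880.15, chromosome 9, 44511787 to 44561877, minus strand) encodes the receptor of CXCL13, carried by B cells and follicular helper T cells. Its level was 0.0412, 0.0449, 0.0953, 0.0669 and 0.0204 TPM in controls and 0.146, 0.115, 0.202, 0.262 and 0.273 TPM in labelled knockouts. All labelled knockout libraries lay above all controls, which among the 17 untested genes with at least 10 counts was so for Cxcr5 alone, and among all 5606 untested genes with at least 10 counts for 1.46%. The exact two-sided permutation test of its mean TPM gave p = 0.0079, the smallest that 5 against 5 can give, and was 1 of 17 such tests, not adjusted. Groups without overlap always give this value, so the test adds nothing to the separation. Cxcr5 did enter DESeq2 and the edgeR fit with no count filter, and had an unadjusted p under 0.05 in both. In each of these fits it was 1 of 3 such genes among 49 members, and 0 of the 49 were called.

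The counts behind Cxcr5 are few and their groups overlapped. They were 2, 2, 5, 3 and 1 in controls and 7, 5, 9, 13 and 4 in labelled knockouts, so labelled knockout 5, the highest in TPM, had fewer counts than control 3. The totals of 13 and 38 give a ratio of 2.94 (95% exact interval 1.53 to 6.02, counting error only), between 2.42 and 3.83 when single libraries were left out. The ratio was 2.70 without labelled knockouts 4 and 5 and 3.09 without the third run of file numbers. Within the first and the second run the labelled knockout library lay above each control in TPM. The gene overlaps Bcl9l on the opposite strand, and whether the counting used strand is not given in the sources used here. Cxcl13, the ligand, showed no such separation (-0.82, standard error 0.92). The B cell marker sums given above lay in the same direction, with control 2 (29.8 TPM) above labelled knockout 5 (28.6 TPM), and their part in the Cxcr5 values was not tested.

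**Figure D5:**
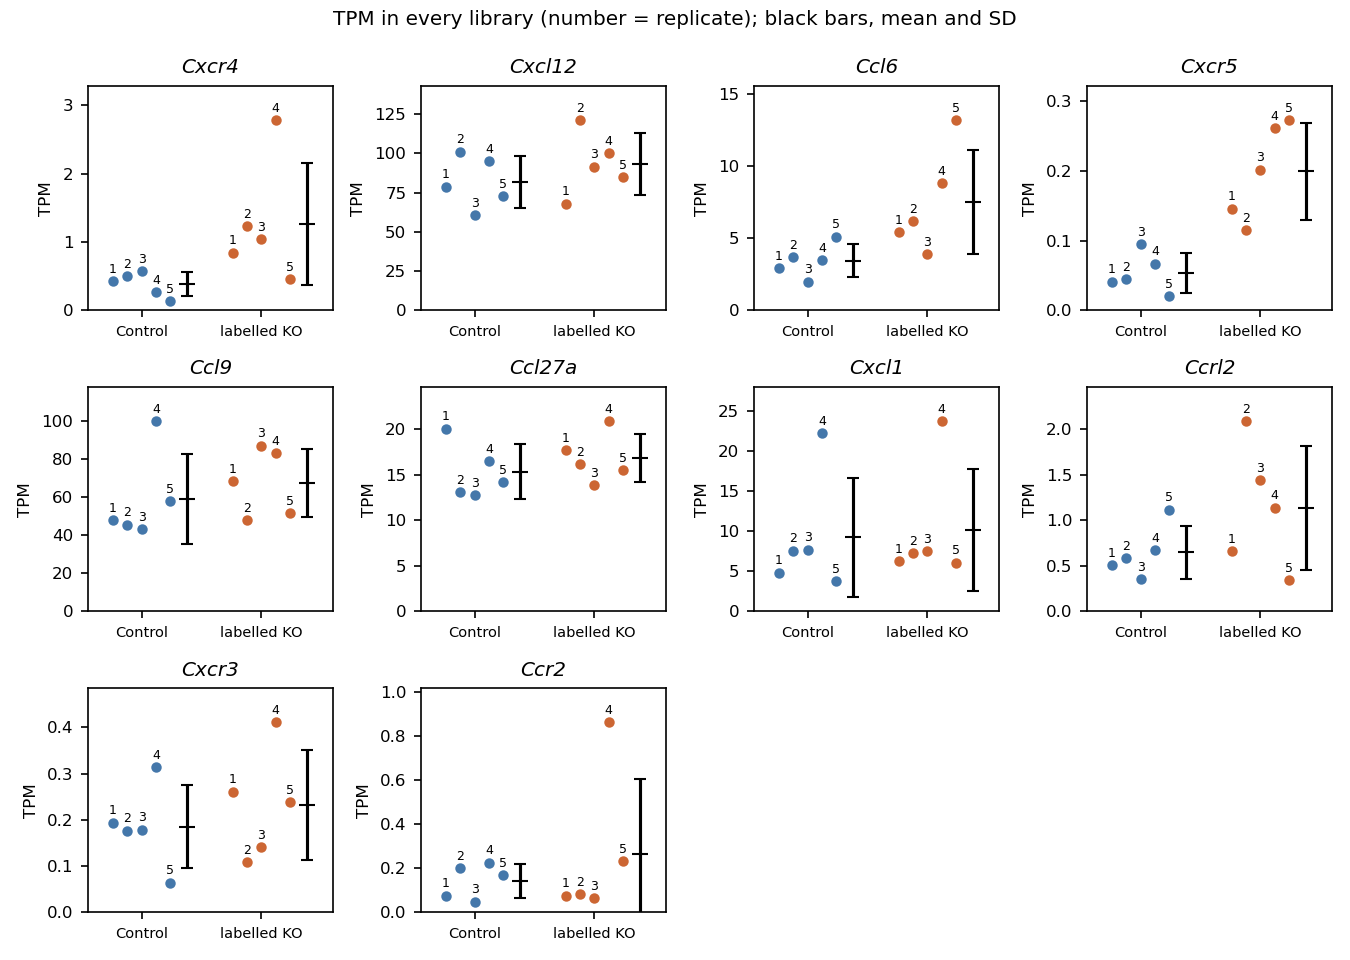
TPM of 10 genes in every library, with the replicate number above each point and the group mean and SD as black bars (cut off at 0 for Ccr2). In Cxcr5 every labelled knockout library lies above every control; in the other 9 genes the groups overlap.

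Ccr2 (ENSMUSG00000049103.14, chromosome 9, 124101950 to 124113557, plus strand) encodes the receptor by which inflammatory monocytes follow CCL2. Its level was 0.0767, 0.201, 0.0494, 0.225 and 0.170 TPM in controls and 0.0763, 0.0839, 0.0657, 0.863 and 0.232 TPM in labelled knockouts. A single library, labelled knockout 4, stood apart, and the other labelled knockouts lay within or next to the control range. The log2 fold change of 0.87 (standard error 0.71, edgeR, adjusted p = 0.78) was -0.27 without that library.

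Ccrl2 (ENSMUSG00000043953.12, chromosome 9, 111054486 to 111057519, minus strand) encodes an atypical receptor that presents chemerin rather than signalling. Its level was 0.509, 0.585, 0.357, 0.675 and 1.12 TPM in controls and 0.663, 2.09, 1.44, 1.14 and 0.344 TPM in labelled knockouts. Labelled knockouts 2, 3 and 4 lay above every control, and labelled knockout 5 below every control. The log2 fold change was 0.68 (standard error 0.36, edgeR, adjusted p = 0.65), and 0.89 without labelled knockout 5 (edgeR, adjusted p = 0.51).

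Cxcr3 (ENSMUSG00000050232.6, chromosome X, 101731535 to 101734269, minus strand) encodes the receptor of CXCL9 and CXCL10 on activated T cells and natural killer cells, and was too low to test. Its level was 0.194, 0.177, 0.179, 0.314 and 0.064 TPM in controls and 0.261, 0.108, 0.141, 0.411 and 0.238 TPM in labelled knockouts, from 28 and 36 counts. The groups overlapped, and both libraries numbered 4 were the highest of their group. The ratio of the totals was 1.29 (95% exact interval 0.767 to 2.20).

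The other 7 untested receptors with at least 10 counts were Cx3cr1, Cxcr6, Ccr7, Xcr1, Cxcr2, Ccr9 and Ccr1. Cx3cr1, the fractalkine receptor of monocytes and macrophages, had 49 and 89 counts and a ratio of 1.83 (1.28 to 2.64). Of the 89 counts, 55 came from labelled knockout 4, and without that library the ratio was 0.873, while of the 49 control counts 28 came from control 4, and without it the ratio was 3.41. The ratio intervals of the other 6 held 1. Cxcr6, the CXCL16 receptor of natural killer T cells, had 27 and 26 counts, the lymph node homing receptor Ccr7 21 and 28, and Xcr1, a receptor of cross-presenting dendritic cells, 27 and 35. Cxcr2, the neutrophil receptor for CXCL1 and CXCL2, had 14 and 20 counts, the CCL25 receptor Ccr9 15 and 25, and Ccr1 5 and 13. Over all 17 untested genes the ratio interval lay above 1 for 4, Cxcr5, Cx3cr1, Ccl3 and Ccl28, and below 1 for none. Of all 5606 untested genes with at least 10 counts, the interval lay above 1 for 15.2% and below 1 for 5.1%.

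The genes differed in how much their level varied between libraries of a group. Among the 20 chemokine and receptor genes tested, the coefficient of variation of TPM in controls ran from 12.6% in Cxcl16 to 136% in Cxcl13, and in labelled knockouts from 15.7% in Ccl27a to 145% in Ccl21a. Cxcl12, the most abundant, had 20.1% and 21%.

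A list of 10 related genes outside the symbol rule held atypical receptors, the platelet chemokines Pf4 and Ppbp, Cklf, the protease Dpp4, and chemerin with its receptor Cmklr1. It included 1 gene with a larger log2 fold change than any chemokine or receptor gene tested. Ackr3, an atypical receptor that takes up CXCL12, averaged 0.148 ± 0.0537 and 0.557 ± 0.311 TPM (log2 fold change 1.75, standard error 0.47, edgeR, adjusted p = 0.23). It was 0.226, 0.114, 0.145, 0.169 and 0.0863 TPM in controls and 0.459, 0.795, 0.550, 0.885 and 0.0964 TPM in labelled knockouts. Labelled knockout 5 lay within the control range, as it did for Cxcr4, and the other labelled knockouts lay above every control. Of the 10 genes 6 were tested and 0 were called, while 2 had an unadjusted p under 0.05 (edgeR), against 8.44% of all tested genes. Without labelled knockout 5, 1 of the 6 was called, against 49 of 13024 genes over the whole table in that fit. Dpp4, a protease that clips CXCL12 and other chemokines, averaged 17.9 ± 3.73 and 15.4 ± 3.62 TPM (-0.35, 0.15, edgeR, adjusted p = 0.55). The most abundant was Rarres2, which encodes chemerin, the ligand of CCRL2, with 592 ± 77.8 and 511 ± 160 TPM (-0.28, 0.20).

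The signalling genes downstream of the receptors were also without a call. Of 32 genes for G protein subunits, arrestins, receptor kinases, Rac activators and RGS proteins, 29 were tested and 0 were called, 20 lay above 0 and 9 below, and the median log2 fold change was 0.44. An unadjusted p under 0.05 (edgeR) was reached by 8 of the 29. Of all tested genes 50.4% lay above 0 and 8.44% had such a p. Without the third run of file numbers 0 of the 29 genes had such a p. Without the libraries with high Saa1, and without labelled knockouts 4 and 5, it was 1 of the 29. The median was 0.26 without labelled knockout 4 and 0.05 without the third run of file numbers. The smallest p belonged to Dock2, a Rac activator of leukocytes, with 0.217 ± 0.0726 and 0.395 ± 0.0691 TPM (0.82, 0.24, edgeR, adjusted p = 0.29). It was followed by Rgs2, which ends G protein signals (1.17, 0.39), Rac2, the Rac of blood cells (0.76, 0.25), and Arrb2, which encodes beta-arrestin 2 (0.54, 0.21). Gng5, the most abundant, averaged 172 ± 18.0 and 171 ± 23.9 TPM.

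Inflammatory and interferon genes, known as inducers of chemokines or as targets of the same signals, had no call either. Of 18 NF-kB genes and inflammatory inducers 14 were tested and 0 called, with a median of 0.20, and Tlr2, a receptor for bacterial lipoproteins, had the smallest p (0.92, standard error 0.32, edgeR, adjusted p = 0.42). Of 15 interferon targets 14 were tested and 0 called, and all 14 lay above 0 with a median of 0.40, 4 of them with an unadjusted p under 0.05 (edgeR). Of all tested genes 50.4% lay above 0 and 8.44% had such a p. Labelled knockout 2 stood apart, with a sum of 490 TPM over the list against 203 to 284 TPM in the other labelled knockouts and 172 to 259 TPM in controls. Without it 13 of 14 lay above 0 with a median of 0.21, and without the third run of file numbers 9 of 14 with a median of 0.06. Gbp2, an interferon-induced GTPase, had 1.12 ± 0.360 and 2.45 ± 1.26 TPM (1.01, 0.31, edgeR, adjusted p = 0.32), whereas Cxcl9 and Cxcl10, which are induced by interferon too, stood at 0.13 and -0.04.

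Of the leukocytes that carry the receptors, lymphocyte markers other than those of B cells were sparse. The 11 T cell markers summed to 2.09 to 4.28 TPM in controls and 2.94 to 5.53 TPM in labelled knockouts, with 2 tested and 0 called. The 9 natural killer cell markers summed to 0.653 to 2.13 and 1.16 to 4.94 TPM and none could be tested. The 10 dendritic cell markers (6 tested, median 0.35) and 5 platelet markers (1 tested, 0.28) had 0 calls. Of the resident cells that make chemokines, the 9 sinusoidal endothelial markers had a median of 0.07, the 11 stellate cell and fibroblast markers 0.20, the 8 hepatocyte markers 0.04, the 3 tested smooth muscle markers -0.52 and the 3 tested bile duct markers 0.09, all with 0 called. The medians were 1.53 for the 7 acute phase genes and -1.83 for the 6 tested handling genes, with Fos among them, also with 0 called. Without the third run of file numbers the acute phase median was -2.48.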

How the data were processed

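For each library the authors deposited estimated counts per gene and TPM per gene. Per the submitters' processing notes, Trim Galore 0.6.4 and kallisto 0.4.6 were used with the build GRCm38.p6; how transcripts were summed to genes and whether strand was used is not given in the sources used here. Symbols, biotypes and positions came from GENCODE's GRCm38 annotation, which matched 55144 of 55385 IDs. The estimated counts were rounded and tested with edgeR 4.0.16 in R 4.3.3 (filterByExpr by group, TMM, robust quasi-likelihood fit, group as the only term), with Benjamini-Hochberg adjustment over all 12872 tested genes and a threshold of 0.05. Levels are TPM as deposited by the authors. The fitting was tested on simulated data.

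Genes under the filter were given as group totals with an exact 95% binomial interval of the ratio (counting error only) and, with at least 10 counts, an exact permutation test of mean TPM (scipy 1.17.1). Alternatives were other scalings and filters, DESeq2 1.42.0, limma 3.58.1 on log2(TPM + 1) and log2(TPM + 0.1), a replicate block, the run of file numbers as a covariate, and fits without single or doubted libraries.

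Values in every library are given for Cxcr4 and Cxcl12, tested genes with an unadjusted p under 0.05, untested genes with at least 10 counts and no overlap in TPM, and the 5 chemokines and 5 receptors with the highest mean TPM; 1 member, counted in every total, is not reported here. From other lists up to 4 genes with the smallest p and the most abundant were open to naming; Ackr3's values by library, Cxcl11 and the examples among members were chosen with their values in view. The members, lists and rules were chosen with earlier results of these data known.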

Additional observations from a re-analysis of the deposited data

Results flagged for a closer look

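Dixon's test for a single value apart was run on 24 groups of 5 libraries (the TPM of 10 genes and the summed chemokine and receptor TPM in each group), and 4 were past its limit of 0.71; chance gives about 1 in 20 groups. Ccl9 in control 4 stood at 99.9 TPM against 43.3 to 57.9 in the other controls. Cxcl1 stood at 22.2 TPM in control 4 against 3.77 to 7.71, and at 23.7 TPM in labelled knockout 4 against 6.09 to 7.48. Ccr2 in labelled knockout 4 stood at 0.863 TPM against 0.0657 to 0.232. All 4 values came from the libraries numbered 4, which also had Saa1 above 1000 TPM; what part that plays was not tested.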

How the results depend on the processing

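In each of the 24 alternative fits 0 members were called at an adjusted p of 0.05, and 0 at 0.10 in the edgeR fit over all libraries; in DESeq2 the adjusted p of Ccl6 was 0.068. Of 450 alternative log2 fold changes 52 had the other sign and none passed the threshold. The number of genes detected was 25 in place of 49 when a count in every library was asked for. Leaving out single libraries turned the sign of some genes, with ranges of -0.28 to 0.47 for Ccl24, -0.07 to 0.40 for Cxcl16, -0.05 to 1.19 for Cxcl14, -1.30 to 0.74 for Cxcl13, -0.47 to 0.70 for Cxcl1, -0.18 to 0.57 for Cxcl9, -0.21 to 0.14 for Cx3cl1, -0.17 to 0.26 for Cxcl10, -0.27 to 1.12 for Ccr2, -0.24 to 0.38 for Ccl19 and -0.01 to 0.20 for Ccl27a. Scaling by library totals alone gave 0.01 for Cx3cl1 and 0.03 for Cxcl10, and limma on log2(TPM + 0.1) gave 0.12 for Cxcl13 and 0.02 for Cxcl10. With the run of file numbers as a covariate the values were -0.05 for Cxcl16, -0.68 for Cxcl14, -0.32 for Cxcl1, -1 for Ccr2, -0.16 for Cxcl12, -1.03 for Ccl19 and -0.05 for Ccl27a. Without the libraries with Saa1 above 1000 TPM they were -0.20 for Cxcl16, -0.66 for Cxcl14, -0.28 for Ccl19 and -0.06 for Ccl27a. Without those with Fos above 20 TPM they were -0.06 for Ccl9, -0.17 for Cxcl1, 0.13 for Cxcl10 and -0.17 for Ccl19. The remaining 2 fits were chosen after seeing the data. Without the third run of file numbers the values were -0.01 for Cxcl16, -0.80 for Cxcl14, -0.48 for Cxcl1, -1.02 for Ccr2, -0.16 for Cxcl12, -1.15 for Ccl19 and -0.03 for Ccl27a. Without labelled knockouts 4 and 5 they were -0.09 for Cxcl16, -0.03 for Ccl9, -0.89 for Cxcl14, -0.53 for Cxcl1, -0.98 for Ccr2, -0.02 for Cxcl12, -0.52 for Ccl19 and -0.06 for Ccl27a. The cause of these turns was not tested. Depth limits the 37 members under the count filter, which rest on totals of at most 138 counts.

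The labels do not say whether the replicate numbers pair the libraries. Same-numbered libraries correlated from -0.10 to 0.276 in their deviations from the group means. For 2 of the 5 numbers the best correlation was with the same number. Such correlations over 5 pairs cannot decide whether the libraries are paired. With the replicate number as a block 0 members were called, 2 had an unadjusted p under 0.05, and the sign turned for Ccl24 (-0.06) and Cxcl10 (0.01). Over all genes the block gave 40 calls in place of 46.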
